A study of Homo sapiens with 12 samples.

Results

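Plasminogen activation, the matrix metalloproteinases (MMPs) and their tissue inhibitors (TIMPs) were followed through 9 genes, taken by name from the table of read counts: PLAU, PLAUR, MMP1, MMP10, MMP13, MMP14, TIMP1, TIMP2 and TIMP3. All 9 were found among the 32077 genes of the table. The samples were 2 human prostate cancer cell lines, PC3 and DU145, both wild type by their labels and both established from metastases and able to grow without androgen. Each line was kept for 48 hours in medium with 2.5 μmol/L pentamidine, an antiprotozoal diamidine, or with vehicle (sterile water), giving 4 groups of 3 samples and 12 samples in all. Polyadenylated RNA was sequenced, and the deposited table held 13514195 to 15131436 reads assigned to genes per sample. The question for these genes was whether the drug altered the mRNAs of proteases that cells use to open the surrounding matrix, in cells whose migration and invasion were also studied.

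Urokinase, the product of PLAU, binds its receptor PLAUR at the cell surface and cuts plasminogen to plasmin, a broad serine protease. Plasmin degrades fibrin and matrix proteins and can activate several secreted pro-MMPs, among them the collagenases MMP1 and MMP13 and the stromelysin MMP10, while MMP14 is anchored in the membrane and acts on collagen and on pro-MMP2. TIMPs hold active MMPs in check, and TIMP2 at low amounts also helps MMP14 to activate pro-MMP2. These proteases are made as inactive zymogens and act only after activation, so mRNA levels do not give enzyme activity.

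The lines were first compared with markers of their identity. KRT18, an epithelial keratin, and VIM, the mesenchymal intermediate filament, were detected in all 4 groups, at group means of 155 to 915 and 319 to 441 CPM (read counts scaled to sequencing depth by the trimmed mean of M-values). KRT8 was at 20.2 CPM in PC3 and 2710 CPM in DU145 vehicle cells. With pentamidine VIM rose in both lines (log2 fold change 0.33, adjusted p = 0.000322 in PC3; 0.42, adjusted p = 2.16e-15 in DU145, by edgeR). KRT18 rose in PC3 (0.35, adjusted p = 6e-04) and fell in DU145 cells (-0.39, adjusted p = 1.14e-15), where KRT8 also fell (-0.56, adjusted p = 1.89e-23, by edgeR). The part of these identity genes in the protease results was not tested. EPCAM, an epithelial adhesion molecule, had at most 2 counts in any sample, and KLK3, an androgen receptor target, also at most 2. Of the stromal and blood markers, COL1A2 and PTPRC had at most 2 counts, PDGFRB at most 5 and PECAM1 at most 10, and COL1A1 reached 40 counts in DU145 vehicle cells. Mitochondria-encoded genes took 3.79–3.91% of all counts with vehicle and 2.66–2.76% with pentamidine in PC3, and 4.41–4.66% and 1.97–2.07% in DU145. Their part in the results was not tested beyond the scaling alternatives. In such bulk samples, fewer cells expressing a gene and less RNA per cell cannot be told apart.

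In PC3 cells pentamidine raised PLAU and MMP14 and lowered PLAUR. In DU145 cells it lowered PLAU, PLAUR, MMP1 and TIMP1 and raised MMP14 and TIMP2. Of the 6 genes tested among the 9, PLAU alone changed in opposite directions in the 2 lines, and each of these changes was under 2-fold. Genes outside the 9 also moved in opposite directions, among them KRT18 above and SERPINB8, TFPI2 and ETS1 below. The quasi-likelihood test of edgeR was run on all genes past a read filter, with p-values adjusted by Benjamini-Hochberg, and changes were called at an adjusted p below 0.05. Of the 9 genes, 6 had enough reads to be tested in each comparison.

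These genes and the lists further below were chosen with earlier results of these data known. Their counts beside the shares of all tested genes are therefore descriptions and not tests. Among the 6 tested genes in PC3 cells, 2 were higher and 1 was lower, beside 21.7% of all 13861 tested genes called higher and 21.7% called lower. In DU145 cells 2 were higher and 4 were lower, beside 17.2% and 16.8% of 14313 genes. None of the 6 also passed a log2 fold change of 1 in either line, a limit that 4.75% of tested genes passed in PC3 cells and 2.03% in DU145 cells. With an unadjusted p below 0.05 there were 3 genes in PC3 and 6 in DU145 cells, and DESeq2 likewise put 0 past both limits. Vehicle samples lay fully apart from pentamidine samples for 3 of the 6 genes in PC3 cells, beside 52.1% of all tested genes, and for 6 of 6 in DU145 cells, beside 44%. The median log2 fold change of the 6 genes was -0.03 in PC3 and -0.37 in DU145 cells, and that of all tested genes was 0.0046 and 0.0085.

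**Figure D1:**
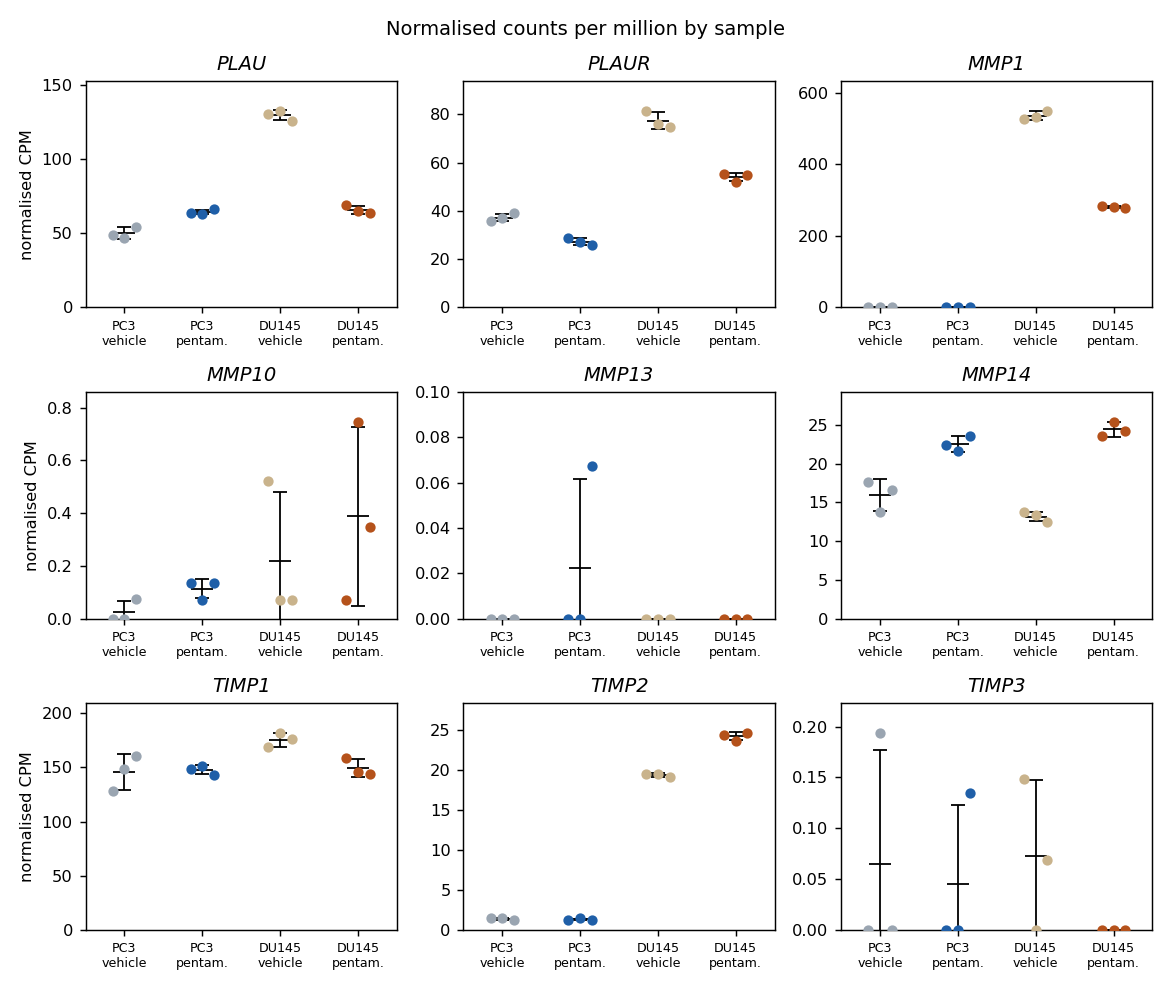
Normalised CPM (y axis, linear, starting at 0) of the 9 genes in each sample of the 4 groups (x axis). Points are samples, and bars give the mean and SD of 3 samples. PLAU moves up in PC3 and down in DU145 cells with pentamidine, and MMP1 is near 0 in PC3 cells on an axis that reaches over 500 CPM in DU145 cells; MMP10, MMP13 and TIMP3 stay below 1 CPM throughout.

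PLAU (ENSG00000122861; GRCh38, chr10:73909177-73917497, plus strand) encodes urokinase, the activator. In PC3 vehicle cells its level was 49.0, 47.2 and 54.6 normalised CPM, and with pentamidine it was 64.0, 63.3 and 66.2 CPM. Every treated PC3 sample lay above every vehicle sample. The rise was 1.29-fold, a log2 fold change of 0.37 (SE 0.068, n = 3 per group, adjusted p = 0.000319 by edgeR). In DU145 vehicle cells PLAU was at 131, 133 and 126 CPM, and with pentamidine at 68.9, 64.9 and 63.7 CPM. The groups did not overlap, and the treated DU145 samples came close to the treated PC3 samples. The fall was 1.97-fold, a log2 fold change of -0.98 (SE 0.045, adjusted p = 4.5e-25 by edgeR).

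The difference between the 2 effects on PLAU was tested as an interaction over all 12 samples, which shares the samples of both single-line comparisons. It was -1.34 on the log2 scale (95% interval -1.51 to -1.18, adjusted p = 5.84e-13 by edgeR), DU145 effect minus PC3 effect. A lower effect in DU145 cells past both limits was found for 1 of the 6 genes, PLAU, beside 1.71% of 15226 tested genes. On the opposite strand, C10orf55 shares 916 exon bases with PLAU, and its counts over 3 samples went from 32 to 6 in DU145 and from 10 to 11 in PC3 cells. PLAU itself had 2192 to 5492 counts per group. Whether counting used strand is not given in the sources used here, so reads of the shared bases cannot be assigned with certainty. The part of such reads in the PLAU counts was not tested.

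PLAUR (ENSG00000011422; chr19:43646095-43670547, minus strand), the urokinase receptor, fell in both lines. In PC3 cells its level was 35.8, 36.9 and 38.9 CPM with vehicle and 28.8, 27.3 and 25.7 CPM with pentamidine. In DU145 cells it was 81.5, 75.8 and 74.8 CPM with vehicle and 55.1, 52.1 and 54.7 CPM with pentamidine. In neither line did the groups overlap. The fall was 1.36-fold in PC3 cells (log2 fold change -0.44, SE 0.076, adjusted p = 0.000163) and 1.43-fold in DU145 cells (log2 fold change -0.51, SE 0.052, adjusted p = 7.17e-12, both by edgeR). The difference between these effects was -0.07 (95% interval -0.26 to 0.11, adjusted p = 0.636 by edgeR), so the data leave room for a difference of up to 0.26 on the log2 scale.

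Promoter windows of RefSeq (GRCh38.p14; 250 bases before to 50 after a start site) were matched for 6 of the 9 genes and searched on both strands for the AP-1 letters TGANTCA, an element long linked to protease genes, for the GC box GGGCGG and for the TATA box TATAAA. Of 34943 windows, 7.72% held the AP-1 letters, 44.9% the GC box and 11.6% the TATA box. The AP-1 letters were in the windows of PLAUR and MMP10, and GC boxes in those of PLAU, MMP14, TIMP1 and TIMP3. The letters TGACGTCA and TGATGNAA, in 1.84% and 3.62% of all windows, were also searched and were in none of the windows of these genes. No window was matched for MMP1, MMP13 or TIMP2, so their promoters were not searched and may or may not hold any of these letters. The PLAUR stretch at chr19:43670338-43670366 (minus strand) is shown as the one such match in a gene that fell in both lines, and the MMP14 stretch at chr14:22836335-22836556 (plus strand) as upstream sequence of the gene that rose in both. Capitals mark the AP-1 letters in PLAUR, from base -186 to -180 of the start site, and the GC box in MMP14, from -66 to -61. A match of letters is a description and not a shown binding site.
PLAUR: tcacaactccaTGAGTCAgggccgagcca
MMP14: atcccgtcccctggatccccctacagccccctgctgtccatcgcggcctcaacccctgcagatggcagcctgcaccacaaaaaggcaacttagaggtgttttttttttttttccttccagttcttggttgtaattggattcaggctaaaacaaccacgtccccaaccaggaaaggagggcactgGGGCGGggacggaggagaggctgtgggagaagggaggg

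MMP1 (ENSG00000196611; chr11:102789920-102798160, minus strand), interstitial collagenase, cuts fibrillar collagen. In DU145 vehicle cells its level was 526, 532 and 550 CPM, and with pentamidine it was 283, 280 and 277 CPM. The groups were far apart compared with their spread. The fall was 1.91-fold (log2 fold change -0.93, SE 0.032, adjusted p = 7.78e-31 by edgeR). In PC3 cells there were only 22, 19 and 28 MMP1 counts with vehicle and 15, 21 and 12 with pentamidine, and the groups overlapped. The log2 fold change in PC3 cells was -0.52 (95% interval -1.22 to 0.19, adjusted p = 0.229 by edgeR). The difference between the effects in the lines was -0.42 (95% interval -0.94 to 0.10, adjusted p = 0.305, both fits by edgeR), so a fall in PC3 cells as large as in DU145 cells was not separable at this depth. WTAPP1, a pseudogene on the opposite strand, shares 150 exon bases with MMP1 and had at most 33 counts over the 3 samples of a group.

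MMP14 (ENSG00000157227; chr14:22836557-22849027, plus strand), the membrane type 1 MMP, rose in both lines. In PC3 cells its level was 17.6, 13.7 and 16.6 CPM with vehicle and 22.4, 21.6 and 23.6 CPM with pentamidine. In DU145 cells it was 13.7, 13.3 and 12.5 CPM with vehicle and 23.6, 25.4 and 24.2 CPM with pentamidine. All treated samples lay above all vehicle samples of their line. The rise was 1.42-fold in PC3 cells (log2 fold change 0.51, SE 0.101, adjusted p = 0.000608) and 1.86-fold in DU145 cells (log2 fold change 0.90, SE 0.091, adjusted p = 9.14e-12, both by edgeR). The larger rise in DU145 cells gave a difference of 0.39 (95% interval 0.12 to 0.66, adjusted p = 0.0365 by edgeR). This call was lost in 10 of 22 alternatives, among them DESeq2 (adjusted p = 0.0937), and over all 22 the adjusted p ranged from 0.00785 to 0.111.

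TIMP1 (ENSG00000102265; chrX:47582313-47586789, plus strand), a secreted inhibitor of most MMPs, was the most abundant inhibitor of the 3. In PC3 cells its level was 128, 149 and 161 CPM with vehicle and 149, 151 and 143 CPM with pentamidine. The vehicle samples spanned the treated ones. The log2 fold change in PC3 cells was 0.02 (95% interval -0.13 to 0.17, adjusted p = 0.817 by edgeR), and its sign turned without vehicle replicate 1 (-0.07) and with scaling to the library size without mitochondria-encoded genes (-0.01). In DU145 cells TIMP1 was at 169, 182 and 176 CPM with vehicle and 159, 146 and 144 CPM with pentamidine, without overlap. It fell 1.17-fold (log2 fold change -0.23, SE 0.040, adjusted p = 5.26e-06 by edgeR). The effect was lower in DU145 than in PC3 cells by -0.25 (95% interval -0.43 to -0.08, adjusted p = 0.0314 by edgeR), a call lost in 9 of 22 alternatives, with an adjusted p of 0.00158 to 0.115.

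TIMP2 (ENSG00000035862; chr17:78852977-78925387, minus strand) is the inhibitor that bridges MMP14 and pro-MMP2. MMP2 itself, named after its values were seen, was under the read filter, with at most 4 counts in any PC3 sample and 14 in any DU145 sample. In DU145 cells the TIMP2 level was 19.5, 19.5 and 19.1 CPM with vehicle and 24.3, 23.6 and 24.6 CPM with pentamidine, and the groups did not overlap. The rise was 1.25-fold (log2 fold change 0.33, SE 0.082, adjusted p = 0.00146 by edgeR). In PC3 cells TIMP2 had 21, 22 and 17 counts with vehicle and 18, 20 and 18 with pentamidine. The log2 fold change there was -0.09 (95% interval -0.71 to 0.53, adjusted p = 0.829), and the difference between the lines' effects was 0.42 (95% interval -0.09 to 0.92, adjusted p = 0.306, both by edgeR). At this depth the PC3 interval holds the DU145 rise.

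**Figure D2:**
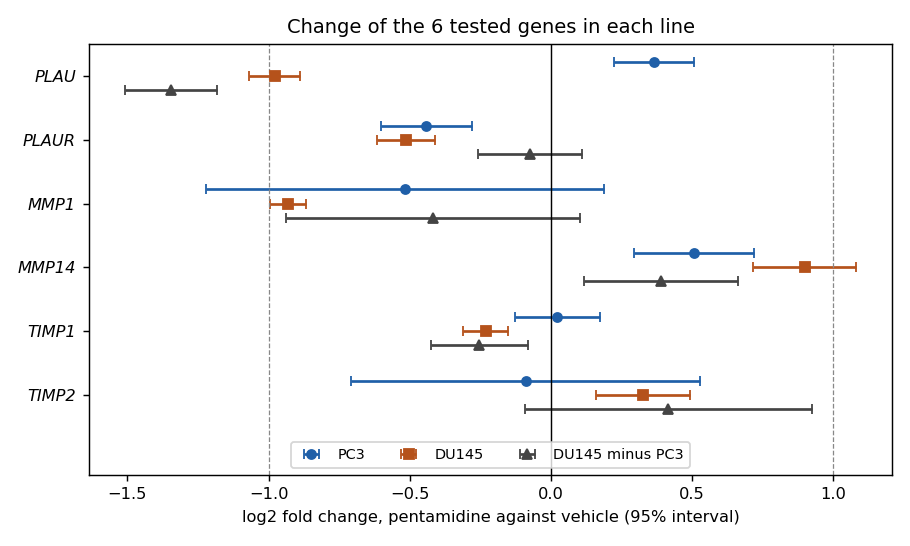
Log2 fold change of pentamidine against vehicle for the 6 tested genes in PC3 cells (circles) and DU145 cells (squares). Triangles give the DU145 effect minus the PC3 effect. Bars are 95% intervals derived from the fold changes and F statistics of edgeR. Dashed lines mark a log2 fold change of 1 in each direction. The intervals of PLAU lie on opposite sides of 0 in the 2 lines, those of PLAUR and MMP14 on one side.

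Of the difference tests, 1 of 6 genes had a higher effect in DU145 cells (MMP14) and 2 a lower effect (PLAU and TIMP1), beside 10.3% and 10.2% of tested genes. Without vehicle PC3 replicate 1, treated PC3 replicates 1 or 2, vehicle DU145 replicates 2 or 3, or treated DU145 replicates 2 or 3, each left out alone, 1 of the 3 calls was left.

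MMP10, MMP13 and TIMP3 were under the read filter. MMP13 (ENSG00000137745; chr11:102942995-102955734, minus strand), the collagenase 3 gene, had 1 count in 1 treated PC3 sample and 0 in the other 11. TIMP3 (ENSG00000100234; chr22:32801701-32863043, plus strand), an inhibitor bound to the matrix, had 0, 3 and 0 counts in PC3 vehicle, 0, 0 and 2 in PC3 pentamidine, 2, 0 and 1 in DU145 vehicle and 0 in all 3 DU145 pentamidine samples. Both were at or under a floor of 3 counts per sample, which is 0.206 to 0.213 CPM as a group mean. MMP10 (ENSG00000166670; chr11:102770503-102780628, minus strand), stromelysin 2, had 0, 0 and 1 counts in PC3 vehicle and 2, 1 and 2 in PC3 pentamidine samples. In DU145 cells it had 7, 1 and 1 counts with vehicle and 1, 11 and 5 with pentamidine, with overlap. When all genes were tested without a filter, MMP10 had an adjusted p of 0.475 in PC3 and 0.571 in DU145 cells by edgeR.

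The 250 bases before the MMP10 start (GRCh38.p14, chr11:102780629-102780878, minus strand) are given since this window held both the AP-1 letters, from -67 to -61, and the TATA box, from -31 to -26, marked in capitals, in a gene with few or no reads here.
MMP10: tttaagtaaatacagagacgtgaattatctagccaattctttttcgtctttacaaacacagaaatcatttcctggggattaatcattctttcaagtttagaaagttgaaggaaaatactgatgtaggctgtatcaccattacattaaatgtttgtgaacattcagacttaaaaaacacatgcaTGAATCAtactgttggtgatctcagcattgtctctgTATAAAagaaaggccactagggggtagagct

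MMP1, MMP10 and MMP13 belong to the MMP gene cluster on chromosome 11, and of the cluster genes in the table only MMP1 passed the filter. MMP7, MMP12 and MMP20 had at most 2 counts in any sample. MMP3, the stromelysin 1 gene (chr11:102835801-102843803), had 1, 3 and 2 counts in PC3 vehicle and 12, 21 and 9 in PC3 pentamidine samples, which did not overlap. In DU145 cells MMP3 had 3, 1 and 1 counts with vehicle and 0, 5 and 1 with pentamidine. In a test without the filter, MMP3 rose in PC3 cells (adjusted p = 0.000108) and had an adjusted p of 0.944 in DU145 cells, and the difference between the lines had an adjusted p of 0.264 (edgeR).

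For MMP1, TIMP2, PLAU and PLAUR the log2 difference between the untreated lines was larger in size than the log2 fold change with the drug in either line. The same vehicle samples serve as controls in the drug comparisons. Anything else that differed between the cultures of the 2 lines cannot be told apart from the line itself. MMP1 was 344-fold higher in DU145 than in PC3 vehicle cells (log2 difference 8.42, SE 0.091, adjusted p = 3.37e-19), at 536 ± 12.7 against 1.60 ± 0.427 CPM (SD, n = 3). TIMP2 was 14.3-fold higher (log2 difference 3.84, SE 0.148, adjusted p = 1.28e-12), PLAU 2.64-fold (1.40, SE 0.061, adjusted p = 6.49e-12) and PLAUR 2.12-fold (1.08, SE 0.064, adjusted p = 2.91e-10, all by edgeR). The values of MMP1 and TIMP2 rest on only 69 and 60 counts over the PC3 vehicle samples. Under the alternatives they ranged from 7.72 to 8.63 for MMP1 and from 3.12 to 3.86 for TIMP2, so their SEs understate the uncertainty. TIMP1 was 1.23-fold higher (log2 difference 0.30, SE 0.070, adjusted p = 0.00132 by edgeR). MMP14 was at -0.25 (95% interval -0.49 to -0.02, adjusted p = 0.0571 by edgeR), and it became a call, lower in DU145 cells, with scaling to library size alone (-0.33), to library size without mitochondria-encoded genes (-0.32), and without PC3 vehicle replicate 2 (-0.36). Thus 5 of 6 genes were higher in DU145 vehicle cells beside 33.8% of 14394 tested genes, 4 of them past 2-fold beside 11.7%. For 6 of 6 genes the vehicle samples of one line lay fully apart from those of the other, beside 69.1% of all tested genes.

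Per kilobase of annotated exon, the genes could be set against each other. In PC3 vehicle cells TIMP1 led at 94.5 ± 10.9 CPM per kilobase (SD, n = 3), before PLAU at 17 ± 1.31, PLAUR at 8.35 ± 0.356, MMP14 at 3.58 ± 0.445, MMP1 at 0.81 ± 0.216 and TIMP2 at 0.243 ± 0.0176. The ranges of neighbours in this order did not overlap. With the length of the longest transcript in place of all exons, PLAUR (23.1 ± 0.987) stood above PLAU (18.9 ± 1.45), so this order depends on the length used. In DU145 vehicle cells MMP1 led at 272 ± 6.44 CPM per kilobase, before TIMP1 at 114 ± 4.12, PLAU at 44.1 ± 1.19, PLAUR at 17.4 ± 0.806, TIMP2 at 3.44 ± 0.0456 and MMP14 at 2.94 ± 0.137. With the longest transcript PLAU and PLAUR differed there by less than their SD (49.0 ± 1.32 and 48.1 ± 2.23). With pentamidine MMP14 (5.47 ± 0.204) stood above TIMP2 (4.29 ± 0.09) in DU145 cells, the reverse of the vehicle order on all exons, whereas with the longest transcript TIMP2 (6.62 ± 0.139) and MMP14 (6.54 ± 0.244) differed by less than their SD.

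Of the summed level of the 9 genes per kilobase, TIMP1 made up 75.9% in PC3 vehicle and 73.8% in PC3 pentamidine cells. In DU145 cells MMP1 made up 59.9% with vehicle and 50.1% with pentamidine, and TIMP1 25.1% and 34.2%. TIMP1 and MMP1 thus held most of the summed level in DU145 cells.

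**Figure D3:**
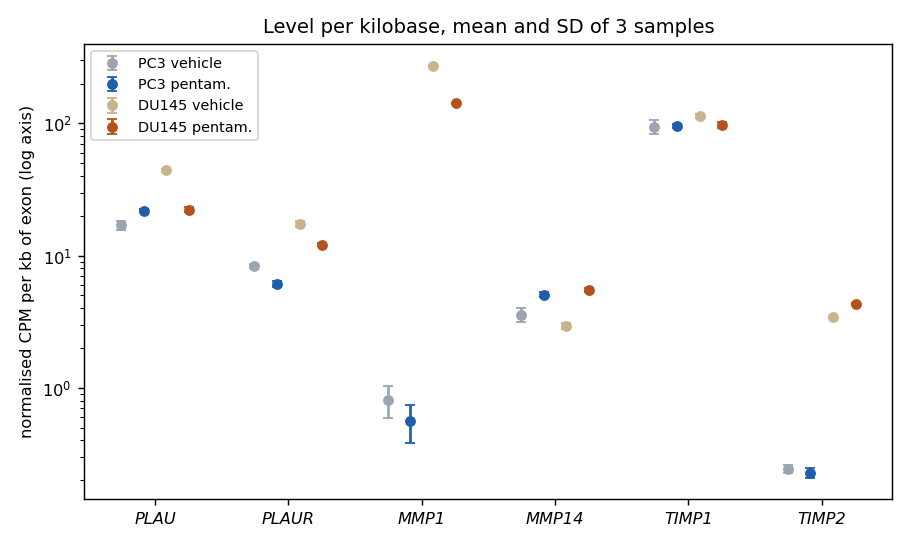
Normalised CPM per kilobase of exon (y axis, log scale) of the 6 tested genes (x axis) in the 4 groups, as mean and SD of 3 samples. MMP1 and TIMP2 separate the lines by more than any treatment does, and TIMP1 stays near 100 in all groups.

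The other genes of the plasminogen system were counted over a list of 23, of which 13 passed the filter. In PC3 cells 7 rose and 1 fell, and in DU145 cells 1 rose and 2 fell, with medians of 0.25 and 0.02 on the log2 scale, beside 21.7% of all tested genes in each direction in PC3 and 17.2% higher and 16.8% lower in DU145 cells. SERPINB8, a serpin of clade B on this list, rose in PC3 cells (log2 fold change 1.28, SE 0.072, adjusted p = 2.36e-10) and fell in DU145 cells (-0.77, SE 0.083, adjusted p = 6.68e-11), with a difference of -2.05 (adjusted p = 6.53e-14, all by edgeR). Whether SERPINB8 has a part in plasminogen activation was not tested. PLAT, the tissue-type activator and chosen for mention after its values were seen, rose in PC3 cells (log2 fold change 0.25, adjusted p = 0.0434) and was at -0.72 (adjusted p = 0.0514) in DU145 cells, with a difference of -0.97 (adjusted p = 0.0104, all by edgeR). Its DU145 counts were low, 33 to 35 per vehicle sample and 11 to 29 per pentamidine sample.

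Of a list of 20 further genes, other MMPs and TIMP4, 16 were in the table and 4 passed the filter: MMP15, MMP16, MMP17 and MMP24, which encode membrane-type enzymes as MMP14 does. In each line 1 rose and 1 fell, beside the same shares of all tested genes. MMP17 and MMP16 are the genes behind these counts and were named after their values were seen. MMP17 rose in PC3 (log2 fold change 0.34, adjusted p = 0.00165) and DU145 cells (0.63, adjusted p = 1.57e-09), and MMP16 fell in both (-0.57, adjusted p = 6.96e-05; -0.27, adjusted p = 0.00306, by edgeR). The 16 regulators of MMPs on the list gave 4 rises and 3 falls of 11 tested in PC3 cells and 3 and 3 of 12 in DU145 cells, beside 21.7% of all tested genes each way in PC3 and 17.2% higher and 16.8% lower in DU145 cells. SPOCK2, a testican proteoglycan, rose in both lines (1.30, adjusted p = 0.0078, in PC3 and 0.65, adjusted p = 0.032, in DU145 cells, by edgeR). The PC3 rise was from only 6 to 9 counts per vehicle sample. TFPI2, a Kunitz inhibitor of plasmin that was picked after its values were seen, rose in PC3 (0.96, adjusted p = 1.04e-09) and fell in DU145 cells (-0.41, adjusted p = 3.11e-16), with a difference of -1.37 (adjusted p = 5.82e-15, by edgeR).

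A list of 20 held factors of the AP-1, ETS and RUNX families, some of them known regulators of PLAU and MMP1 transcription, and MAFF. In PC3 cells 7 rose and 3 fell of 17 tested, and in DU145 cells 4 rose and 8 fell of 18, with medians of 0.15 and -0.23. Over all tested genes 21.7% were called each way in PC3 cells, and in DU145 cells 17.2% were higher and 16.8% lower. ATF3, a stress-induced bZIP factor, rose from 2.49 ± 0.262 to 34.6 ± 4.25 CPM in PC3 (log2 fold change 3.79, adjusted p = 5.67e-13) and from 0.856 ± 0.287 to 4.54 ± 0.561 CPM in DU145 cells (2.41, adjusted p = 2.24e-10, by edgeR). MAFF, a small MAF factor, was at 0.21 (adjusted p = 0.0707) in PC3 cells and fell in DU145 cells (-1.08, adjusted p = 8.81e-15, by edgeR). ETS1, named after its values were seen, rose in PC3 (0.90, adjusted p = 9.08e-11) and fell in DU145 cells (-0.48, adjusted p = 2.36e-18), with a difference of -1.38 (adjusted p = 2.64e-16, by edgeR). FOSL1 and JUNB, also named afterwards, each fell in 1 line, FOSL1 in PC3 (-0.67, adjusted p = 1.22e-07) and JUNB in DU145 cells (-0.56, adjusted p = 1.81e-07, by edgeR). Whether these factors bear on the proteases was not tested.

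**Figure D4:**
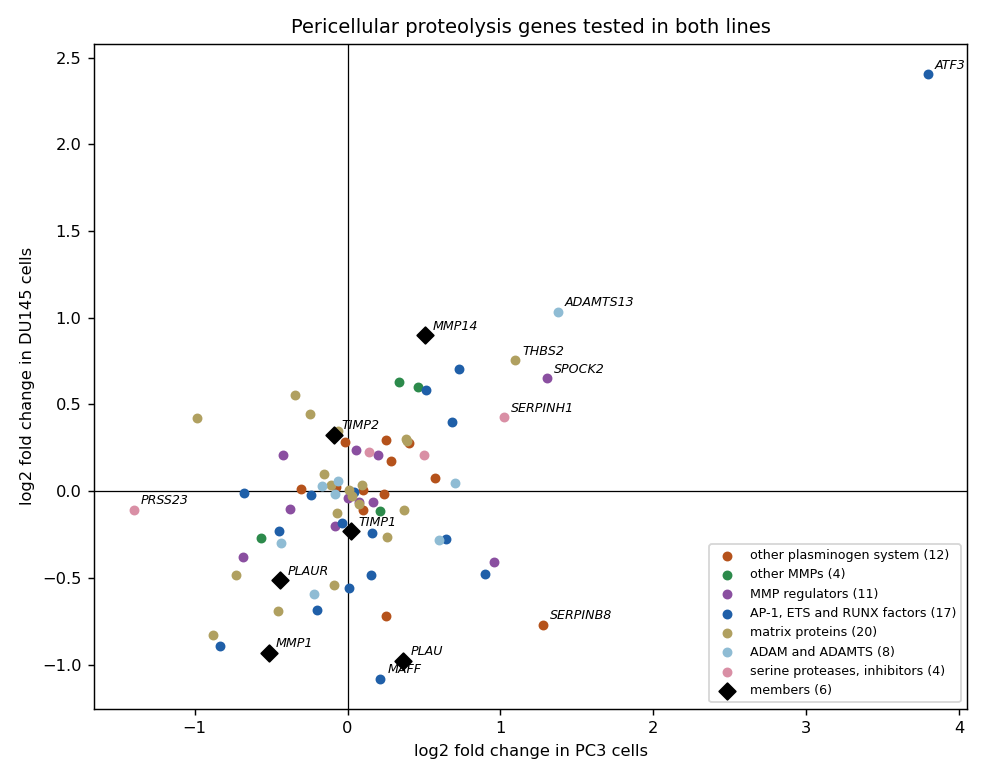
Log2 fold change in PC3 cells (x axis) against that in DU145 cells (y axis) for genes tested in both lines, coloured by list, with the 6 proteolysis genes as diamonds and the number of genes per list in brackets. PLAU and SERPINB8 lie to the right of 0 and below 0, MMP14 up and right, PLAUR down and left.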

How the data were processed

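Total RNA was taken from PC3 and DU145 cells, mRNA was enriched with oligo(dT) beads, and paired-end libraries were sequenced. The submitters' processing notes name HISAT2 (version 2.1.0), DESeq (version 1.18.1) and GRCh38. The counting program and its strand setting are not given in the sources used here. The authors deposited raw read counts per gene, with no normalization. The other deposited tables hold normalized values and the authors' own comparisons (fold changes and p-values) and were not used here. Of 33639 lines, 44 were broken annotation text without counts, and of the genes with an Ensembl ID 137 names stood on several IDs (2 with differing counts), leaving 32077 genes. Samples were grouped by the labels. The labels do not say whether the libraries came from separate cultures, and the study's statement on independent experiments is not made for the sequencing libraries in particular, so p-values may measure only technical spread between these samples.

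Counts were analysed in R (version 4.3.3) with edgeR (version 4.0.16): filterByExpr with a minimum count of 10, TMM factors, and the quasi-likelihood test, on the 6 samples of a line or the 6 vehicle samples, and on all 12 for the interaction. A gene was called at an adjusted p below 0.05, and, for the 2-fold limit of the study's methods, a log2 fold change over 1 in size. SEs and 95% intervals were derived from the log2 fold change and the F statistic of the quasi-likelihood test. They can be too narrow for large differences with few counts. Levels are CPM with TMM factors. Replicate libraries of a group differed by 1.69 to 6.76 chi-square units per gene, more than sampling noise, and were kept apart. On simulated counts the test recovered 98%, 96%, 88% and 95% of genes changed by 1 on the log2 scale for PC3, DU145, the interaction and the vehicle comparison. The simulation gave each gene the same mean in both lines and all genes the same spread, and genes with low mean counts were not changed. These rates therefore do not hold for genes with few reads, such as MMP1 and TIMP2 in PC3 cells. Alternatives used RLE factors, library size with or without mitochondria-encoded genes, other filters, DESeq2 (version 1.42.0), limma (version 3.58.1) on log2(CPM + 1) or log2(CPM + 0.1), a replicate block, 1 fit of all 12 samples and each sample left out.

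Named genes are the 9 genes, the genes past both limits in either line from fixed lists (at most 4 per list, with at least 10 counts in each sample of the higher group) and the MMP cluster genes on chromosome 11. Others are marked where they stand. Some genes that this rule names are not reported here. The members and lists were chosen with earlier results of these data known. Gene positions are those of the deposited table, and all 9 have the same position in GENCODE 29.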

Additional observations from a re-analysis of the deposited data

Results flagged for a closer look

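The effect of pentamidine differed between the lines, by the interaction test of edgeR over all 12 samples, for 3 of the 6 tested genes. For PLAU the DU145 effect minus the PC3 effect was -1.345 on the log2 scale, and it kept its direction and its call in all 22 alternatives, from -1.413 to -1.277. For MMP14 the difference was 0.391 and for TIMP1 -0.254; the call was lost in 10 and 9 of 22 alternatives, and neither changed sign.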

How the results depend on the processing

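With the adjusted p alone and no limit on the fold change, 3 genes were called in PC3 cells, 6 in DU145 cells and 3 in the difference between lines, against 0, 0 and 1 past 2-fold. Leaving out 1 sample at a time gave 0 to 1 genes past 2-fold in DU145 cells, PLAU passing without vehicle replicate 3 (-1.001) or pentamidine replicate 1 (-1.016), and 1 to 3 genes with a called difference between lines; the cause was not tested. The PC3 change of TIMP1, not called, was -0.011 with library size without mitochondria-encoded genes and ranged from -0.069 to 0.099 when single samples were left out, so its sign is not set. In PC3 cells 100 of 102 values under alternatives kept direction and call, and in DU145 cells 102 of 102 by the same count, the counts past 2-fold aside. In the difference between lines 19 values of MMP14 and TIMP1 lost their call, and that of MMP1 became one with limma on log2(CPM + 1) (-0.63, adjusted p = 0.00306). MMP1 means in PC3 cells were 1.60 CPM with vehicle and 1.11 CPM with pentamidine, close to the 1 added there. That value therefore depends on the added amount. Same-numbered vehicle and pentamidine samples did not deviate together (correlations -0.0733 to 0.0262), so no pairing by number was seen. This check cannot exclude a pairing, since it rests on deviations from means of 3 samples, and the labels state none. With the replicate block the called genes numbered 3 in PC3 cells, 6 in DU145 cells and 3 in the difference, as without it, and PLAU differed by -1.345. Low counts limit MMP1 and TIMP2 in PC3 cells and MMP10, MMP13 and TIMP3 in both lines.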

Other observations

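Of all tested genes 21.7% were called in each direction in PC3 cells, and in DU145 cells 17.2% were called higher and 16.8% lower; the counts that follow stand beside these shares. ADAM and ADAMTS proteases gave 3 rises and 4 falls of 13 tested genes in PC3 cells and 3 rises and 1 fall of 12 in DU145 cells. ADAMTS13, the protease of von Willebrand factor, rose in both lines (log2 fold change 1.38, adjusted p = 0.000829, and 1.03, adjusted p = 0.00058, by edgeR). ADAM8, a membrane-bound metalloproteinase, rose in DU145 cells (1.24, adjusted p = 0.0118), from only 5 to 10 counts per vehicle sample. ADAMTS3, a procollagen peptidase, fell in PC3 cells (-1.13, adjusted p = 3.41e-05, by edgeR). Each was under the filter in the other line, and neither differed between lines by a call (adjusted p = 0.39 for ADAM8 and 0.68 for ADAMTS3, by edgeR). Among other serine proteases and inhibitors, 3 rose and 1 fell in each line, of 5 tested in PC3 and 4 in DU145 cells, beside the same shares of all tested genes. PRSS23, a secreted serine protease, fell in PC3 cells by 1.40 on the log2 scale and in DU145 cells by 0.11, with a difference of 1.29 (adjusted p = 5.79e-13), and SERPINH1, the collagen chaperone HSP47, rose in both (1.02 and 0.43, adjusted p = 1.21e-10 and 6.46e-14, by edgeR).

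Of the matrix proteins that these proteases act on, 6 rose and 6 fell of 23 tested in PC3 cells and 7 rose and 7 fell of 23 in DU145 cells, beside 21.7% of all tested genes each way in PC3 and 17.2% higher and 16.8% lower in DU145 cells. THBS2, a matricellular thrombospondin, and TNC, tenascin C, rose in PC3 cells (log2 fold change 1.10, adjusted p = 0.0021, and 1.07, adjusted p = 0.00162, by edgeR). THBS2 was at 0.76 in DU145 cells (adjusted p = 0.0737), where TNC was under the filter. For neither gene was the difference between lines called (adjusted p = 0.621 for each, by edgeR).

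Over the 12 samples, which form 4 groups and so are not 12 independent points, the log2 CPM of MMP14 was most like that of TBC1D20 (Pearson r = 0.966), MMP17 (0.9658) and IFT140 (0.9565), and that of PLAU most like that of TAP1 (0.9835), SAMD4A (0.9774) and CCL20 (0.9729). These values are descriptions, and the 2 genes were picked for this after their changes were seen.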
